A study of Arabidopsis thaliana with 3 samples.

Results

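In the inner chromosome arms of Arabidopsis thaliana, 576 LDL1:GFP regions had their midpoint no more than 250 bp from either end of a protein-coding gene, and these regions are described here. They were chosen by position alone, from the 1498 regions whose midpoint lay in 8 arm segments that leave out the outer 1 Mb of each chromosome and the sequence around the centromeres, out of 5928 regions over all 5 chromosomes. The plants were 14-day-old seedlings of ecotype Col-0 grown under long days. Their transgene was a fusion of LDL1 and green fluorescent protein (GFP) driven by the LDL1 promoter. An anti-GFP antibody was used for 2 ChIP libraries labelled as biological replicates, each built from several pooled precipitations, and 1 input library came from the same line. All 3 libraries therefore share the transgene. The sources used here do not give whether the plants also kept their own LDL1, and a line without GFP was not analysed here. The ChIP data are a single set of coordinates with no score and no separation by replicate. The values below thus have no replicate error and no test, the ChIP depth is unknown, and the intervals given cover counting error only.

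LDL1 is a plant relative of the animal histone demethylase LSD1, which removes methyl groups from lysine 4 of histone H3. In plants, some forms of methylation of this residue mark the nucleosomes of active genes. Members of this family in Arabidopsis are known for repressing FLC and thereby promoting flowering, and act together with histone deacetylases. Both ends of a gene matter for its transcription, since the promoter lies at the start and the signals for cleavage and polyadenylation at the stop. Gene strand was not used here, so starts and stops were not told apart; ends are called lower or higher by their coordinate.

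Sequence near gene ends held more regions per Mb than the pooled rest of the inner arms. The 576 regions made up 38.5% of inner-arm regions (exact Clopper-Pearson 95% interval 36.0 to 41.0%), whereas 22.5% of inner-arm bases lay within 250 bp of a gene end. The density was 30.1 regions per Mb of sequence near ends and 14.0 per Mb of other inner-arm sequence. In the 8 segments the density near ends ranged from 20.3 to 39.7 per Mb and elsewhere from 9.88 to 17.7 per Mb. It was higher near ends in 8 of 8 segments. The ratio of the region share to the base share was 1.44 on the lower arm of chromosome 5, the lowest of the 8, and 1.83 on its upper arm, the highest.

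**Figure D1:**
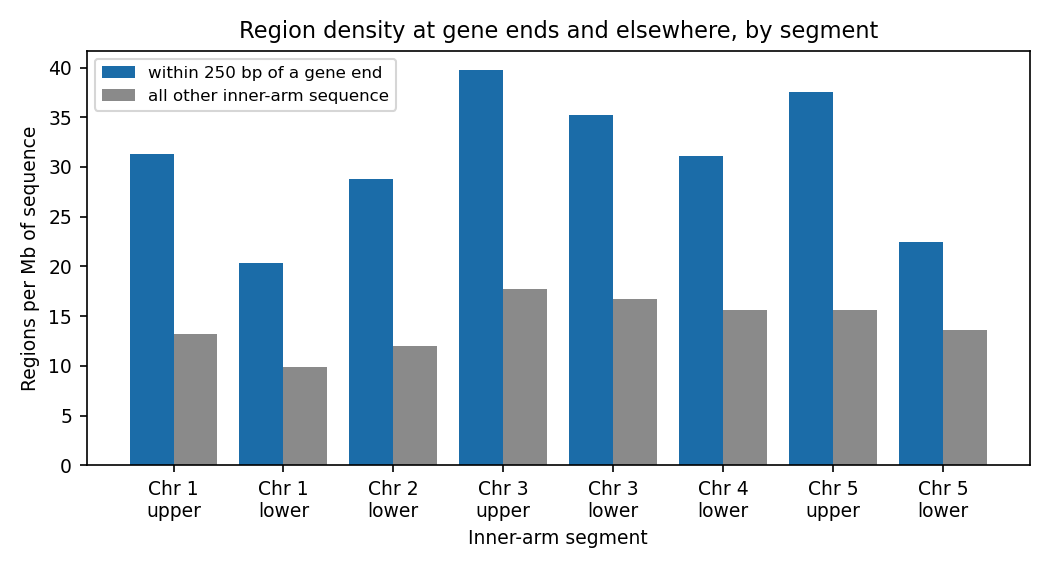
Bars give LDL1:GFP regions per Mb of sequence (y axis, from 0) within 250 bp of a protein-coding gene end (blue) and in all other inner-arm sequence (grey), for the 8 inner-arm segments (x axis). The blue bar is the taller in each segment, from 20.3 per Mb on the lower arm of chromosome 1 to 39.7 per Mb on the upper arm of chromosome 3.

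The profile around gene ends was not symmetric. Just outside genes, the density was 36.1 per Mb in the first 100 bp (exact Poisson 95% interval 30.5 to 42.5) and 29.4 per Mb at 100 to 250 bp (24.8 to 34.6). Farther out it was 13.4 per Mb at 250 to 500 bp (10.8 to 16.6) and 11.8 per Mb at 500 to 1000 bp. Inside genes, the density was 27.9 per Mb in the first 100 bp and 28.2 per Mb at 100 to 250 bp. There it remained at this level up to 500 bp, at 27.8 per Mb between 250 and 500 bp (24.4 to 31.4), and was 14.2 per Mb at 500 to 1000 bp. In bins of 50 bp outside genes, the density was 38.7 per Mb at 100 to 150 bp, 21.3 at 150 to 200 bp, 27.3 at 200 to 250 bp and 16.6 at 250 to 300 bp. The decline outside genes was thus spread over 150 to 300 bp, while inside genes the dense zone ran on beyond the limit of 250 bp.

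**Figure D2:**
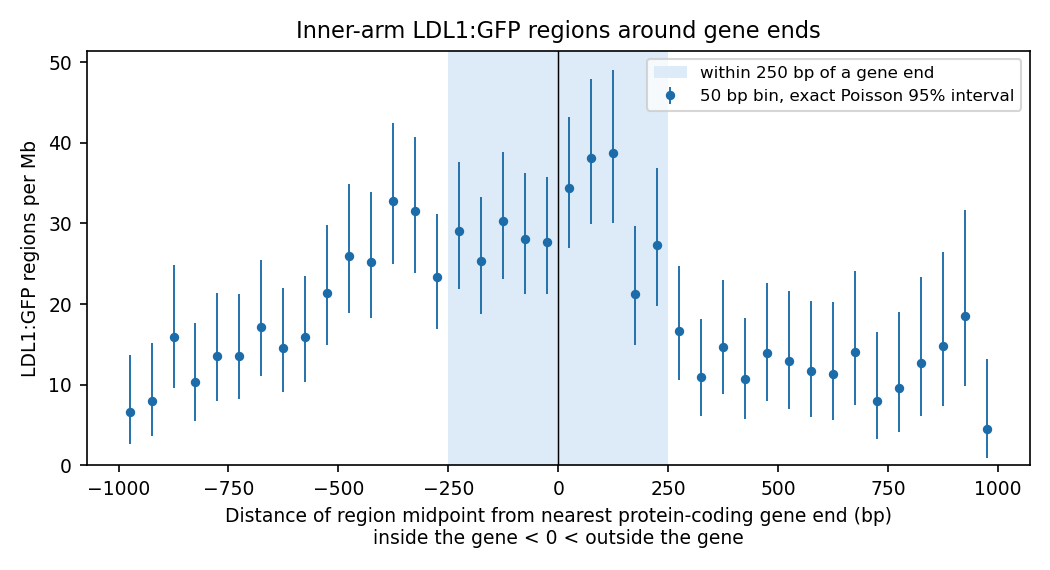
Points give inner-arm LDL1:GFP regions per Mb of sequence (y axis) in bins of 50 bp by the distance of the region midpoint from the nearest protein-coding gene end (x axis; negative values lie inside the gene), with exact Poisson 95% intervals from counting; the shaded band spans 250 bp on either side of the end. Outside genes the density falls past the shaded band, to 13.4 per Mb at 250 to 500 bp, whereas inside genes it is 27.8 per Mb over the same distances.

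Most of these regions covered the gene end itself. An end within 250 bp of the midpoint lay inside the region in 364 of 576 cases (63.2%). A further 129 regions (22.4%) lay wholly within the body of the gene, and 76 (13.2%) touched no protein-coding gene. The remaining 7 overlapped another gene only. These shares depend on the selection of midpoints within 250 bp of an end and on region width, with a median of 278 bp. What the selection alone would give was not computed. Midpoints lay a median of 108.5 bp from the nearest end (interquartile range 54.4 to 176 bp), with 290 outside the nearest gene, 285 inside it and 1 on the end base itself. Outside positions made up 46.9% of the sequence near ends and 50.4% of these midpoints (95% interval 46.3 to 54.6%). Of 733 pairs of a region and an end, 384 concerned the end of higher coordinate and 349 the end of lower coordinate, a share of 52.4% (48.7 to 56.1%).

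The region whose midpoint fell on an end base spanned 323 bp at AT3G13430 (chromosome 3, 4367020 to 4367342), and AT3G13420 ended within 250 bp of the same midpoint. Next came AT3G06895, AT5G05010, AT2G42510, ROC5, a cyclophilin, and HY5, with midpoints 1.0 to 1.5 bp from an end. The region at AT3G06895, a gene of 163 bp, also held the whole snRNA gene U4.2. AT5G05010 shared its region of 229 bp with TOC34, a GTPase of the chloroplast protein import machinery, and AT2G42510 shared one of 280 bp with PP2A-3, a catalytic subunit of protein phosphatase 2A. At the other margin, the midpoints at AT4G21926 and AT5G52530 lay 249.5 and 249 bp inside their genes. Just past the limit, and so not counted, were a region of 300 bp inside VPS60.2 (250.5 bp from its end) and a region of 747 bp at BIM2, a factor of brassinosteroid signalling, whose midpoint lay outside the gene and less than 1 bp farther from its end than that.

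Regions were denser where 2 genes ended close together. A midpoint lay within 250 bp of the ends of 2 genes in 148 of 576 cases (25.7%), although such sequence made up 17.1% of all sequence near ends. This corresponds to 45.1 regions per Mb (95% Poisson interval 38.1 to 53.0), against 27.0 per Mb near the ends of 1 gene only (24.5 to 29.6). In 116 of the 148 cases the 2 genes were separated by a gap, with a median of 181.5 bp, and in 54 of these the region covered both ends. In the other 32 the genes overlapped each other.

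Each of the 45198 ends of inner-arm protein-coding genes was also classed by the gap it faced. Over all ends, 726 (1.61%) had a region midpoint within 250 bp. The share was 2.12% for ends facing a gap of up to 250 bp (1.84 to 2.42%) and 2.31% for one over 250 and up to 500 bp (1.91 to 2.76%). It was 1.49% for gaps of 500 to 1000 bp, 1.25% for 1000 to 2000 bp (1.01 to 1.52%) and 1.28% for longer gaps. Ends that lay inside another protein-coding gene had a region in 1.33% of cases. An end in a short gap can be reached by the region of its neighbour, and counting only midpoints inside the gene whose end it is, the shares lay between 0.566% for gaps over 2000 bp and 0.847% for ends inside another gene.

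The widest region shared by 2 genes spanned 910 bp (chromosome 5, 1359970 to 1360879) between AT5G04710 and ADR1-L2, a helper of intracellular immune receptors, and it covered both ends. The next, of 518 bp, lay between AT1G06550 and AT1G06560 (chromosome 1, 2007158 to 2007675), with its midpoint 204.5 and 198.5 bp from their ends. A region of 507 bp covered the ends of AT1G20770 and SAUL1, a ubiquitin ligase of the U-box type. RBR1, the plant retinoblastoma-related regulator of the cell cycle, shared one of 503 bp with AT3G12290 (chromosome 3, 3919139 to 3919641). Its midpoint was 31 bp outside RBR1 and 73 bp outside AT3G12290. The other widest shared regions were those of NPX1 with AT5G63340 (492 bp) and CHR17 with AT5G18630 (467 bp).

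Density near gene ends declined from the chromosome ends inwards. It was 54.2 regions per Mb of end sequence at 1 to 2 Mb from the chromosome end (44.2 to 65.6), 44.6 at 2 to 4 Mb (38.1 to 51.9), 29.9 at 4 to 7 Mb (25.7 to 34.7) and 16.96 beyond 7 Mb (14.2 to 20.1). Other inner-arm sequence showed the same order, with 23.7, 20.4, 13.9 and 9.2 regions per Mb. The ratio of the 2 densities was 2.29, 2.18, 2.16 and 1.84 in these zones. Depth and copy number along the arms were not measured, so their part in this order was not tested.

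**Figure D3:**
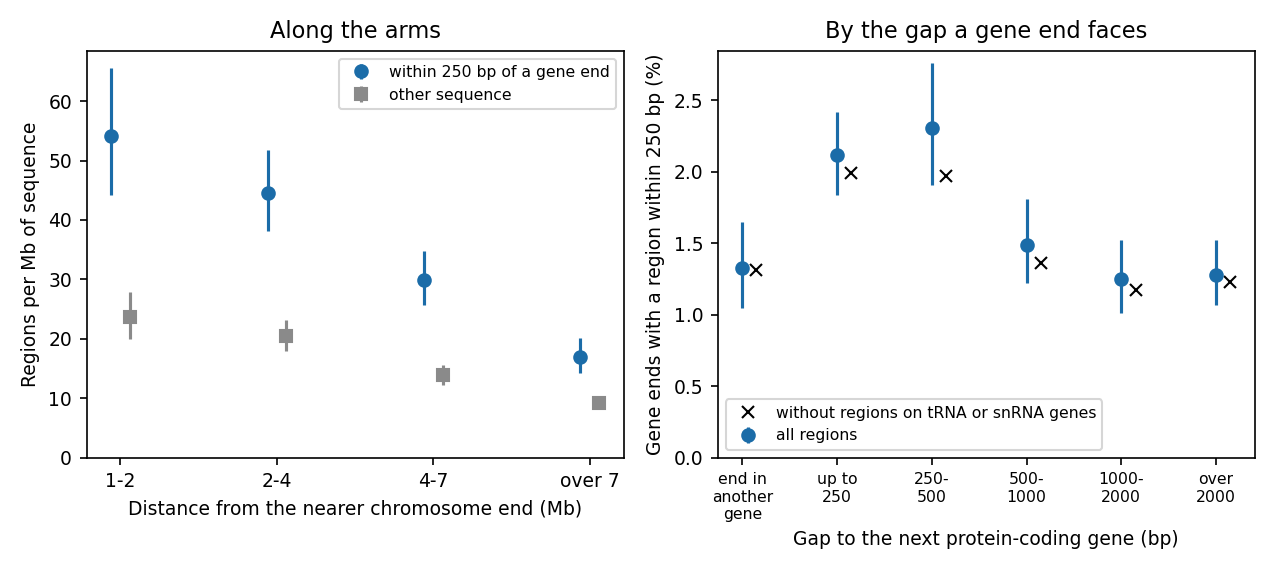
Left, regions per Mb of sequence (y axis) within 250 bp of a gene end (blue circles) and elsewhere in the inner arms (grey squares) by distance from the nearer chromosome end (x axis), with exact Poisson 95% intervals; both decline inwards, from 54.2 to 16.96 and from 23.7 to 9.2 per Mb. Right, the share of gene ends with a region midpoint within 250 bp (y axis) by the gap to the next protein-coding gene (x axis), with exact Clopper-Pearson 95% intervals and, as crosses, the share without regions on tRNA or snRNA genes; ends facing gaps of up to 500 bp stand at 2.12 and 2.31%.

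Gene-end regions were short, as were inner-arm regions in general. The median width at gene ends was 278 bp (interquartile range 240 to 331 bp, full range 167 to 1137 bp), and 1 of 576 exceeded 1000 bp. Over all inner-arm regions the median was 267 bp. Inner-arm regions inside genes, farther than 250 bp from an end, had a median of 252 bp (216 to 313 bp, n = 613), and regions between genes one of 276 bp (230 to 338 bp, n = 309). Gene-end regions had the higher median than those inside genes in 7 of 8 segments, the exception being the lower arm of chromosome 1 (271 against 295 bp). Against regions between genes they did so in 5 of 8, so no order between these 2 classes can be given. Intervals of the input set covered 85.4% of gene-end regions over their whole length (82.3 to 88.2%), 89.1% of those inside genes and 81.9% of those between genes. Another region lay within 1000 bp, between midpoints, of 39 gene-end regions (6.77%), 9.95% of those inside genes and 10.0% of those between genes.

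The widest of all, 1137 bp, lay at AT3G20362, a gene of 434 bp (chromosome 3, 7103569 to 7104705). After the region at ADR1-L2 came one of 789 bp at MTHSC70-2, a mitochondrial Hsp70 chaperone (chromosome 5, 2974884 to 2975672), which contained the U2 snRNA gene U2.5. SK13, a GSK3-type protein kinase, held a region of 704 bp with its midpoint 20.5 bp outside the gene (chromosome 5, 4722040 to 4722743). AGP15, which encodes an arabinogalactan protein of the cell wall, held one of 697 bp, and the aldehyde dehydrogenase gene ALDH3I1 one of 643 bp (chromosome 4, 16389041 to 16389683). The others among the 12 widest lay at AT5G39170, AT5G56260, AT3G05675, whose region overlapped the snRNA gene U1.7, AT4G19270, MYB1 and the pair AT1G06550 and AT1G06560. In all 12 the region covered at least 1 end of the named genes.

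Transfer RNA and spliceosomal RNA genes, which are short and often lie between protein-coding genes, were overlapped by 39 of the 576 regions (6.77%, 4.86 to 9.14%). Of these, 31 lay on a tRNA gene and 8 on an snRNA gene, and in 32 the region held the whole gene. The centre of the RNA gene lay a median of 48.5 bp from the region midpoint (interquartile range 24.8 to 88.3 bp). Among inner-arm regions inside protein-coding genes 0 of 613 lay on such a gene, a count that allows a share of up to 0.489% (3 counts), and among those between genes 11 of 309 did (3.56%). How many of these RNA genes lie inside protein-coding genes was not counted, so the shares are not adjusted for it. Counted as genes, 7.23% of the 512 inner-arm tRNA genes and 17.8% of the 73 snRNA genes were overlapped by any inner-arm region. For tRNA genes within 250 bp of a protein-coding gene end the share was 28 of 274 (10.2%, 6.9 to 14.4%), and for those farther away 9 of 238 (3.78%, 1.74 to 7.06%). For snRNA genes the shares were 6 of 26 (23.1%, 8.97 to 43.6%) and 7 of 47 (14.9%, 6.2 to 28.3%), with overlapping intervals. Gene-end regions on a tRNA or snRNA gene had a median width of 309 bp, against 276 bp for the other 537. The snRNA genes were 4 further copies of U2 besides U2.5 (U2.1, U2.3, U2.4 and U2.11), U1.7, U4.2 and U5.6. Genes of these RNAs occur in near-identical copies, among which the authors' alignment may have split reads.

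Other non-coding loci were also counted. Long non-coding RNA genes were overlapped by 19 gene-end regions (3.3%), 3.26% of regions inside genes and 11.7% of those between genes. For pseudogenes these values were 6 (1.04%), 0.489% and 19.7%. Counted as genes, gene-end regions overlapped 0.74% of the 2701 inner-arm long non-coding RNA genes and 0.444% of the 1351 pseudogenes. Of 257 inner-arm microRNA genes, 0 were overlapped by any inner-arm region, which allows a share of up to 1.17%.

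A total of 707 protein-coding genes had a region at an end. This is 3.13% of the 22599 protein-coding genes of the inner arms, and from 2.13% of genes on the lower arm of chromosome 1 to 4.29% on the upper arm of chromosome 3. When only genes with an end base inside a region were counted, the share was 1.95%. It was 5.2% with a limit of 500 bp, and 2.91% at 250 bp without regions on tRNA, snRNA or rRNA genes. The genes with a region at an end were longer than the others, with a median length of 2450 bp (1693 to 3368 bp) against 2090.5 bp (1343 to 3056 bp). By length, 1.77% of genes up to 1000 bp held one (1.35 to 2.27%), 2.78% of those up to 2000 bp, 3.52% of those up to 3000 bp, 3.87% of those up to 5000 bp and 4.12% of longer genes (3.13 to 5.3%).

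Repeated regions at 1 gene were few. Of the 707 genes, 15 had 2 or more of these regions, 10 had different regions at both ends, and 31 had a further region over the gene body. AT1G65346 held 3, of 228, 365 and 440 bp. This gene and its 3 regions lay within the longer gene UBQ13. UBQ13 itself had a region of 412 bp near its end of lower coordinate. Its body held 4 other regions, with the 3 of AT1G65346 among them. APX1, the cytosolic ascorbate peroxidase that removes hydrogen peroxide, also held 3, of 335, 194 and 259 bp, the first being 193 bp outside the gene and the last 222 bp inside its other end. SNX2a, a sorting nexin of the retromer pathway, held regions of 443 and 430 bp, and the first also lay near EXO70B1, a subunit of the exocyst that tethers secretory vesicles. ELF4-L4, related to the clock gene ELF4, held one of 353 bp and one of 362 bp at opposite ends (chromosome 1, 5996811 to 5997163 and 5998568 to 5998929). CHR17, a chromatin remodeller of the ISWI type, held one of 246 bp 47.5 bp outside one end and one of 467 bp 171 bp outside the other. MTM1, a mitochondrial carrier protein, held 2 regions of 378 and 321 bp on either side of the same end.

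**Figure D4:**
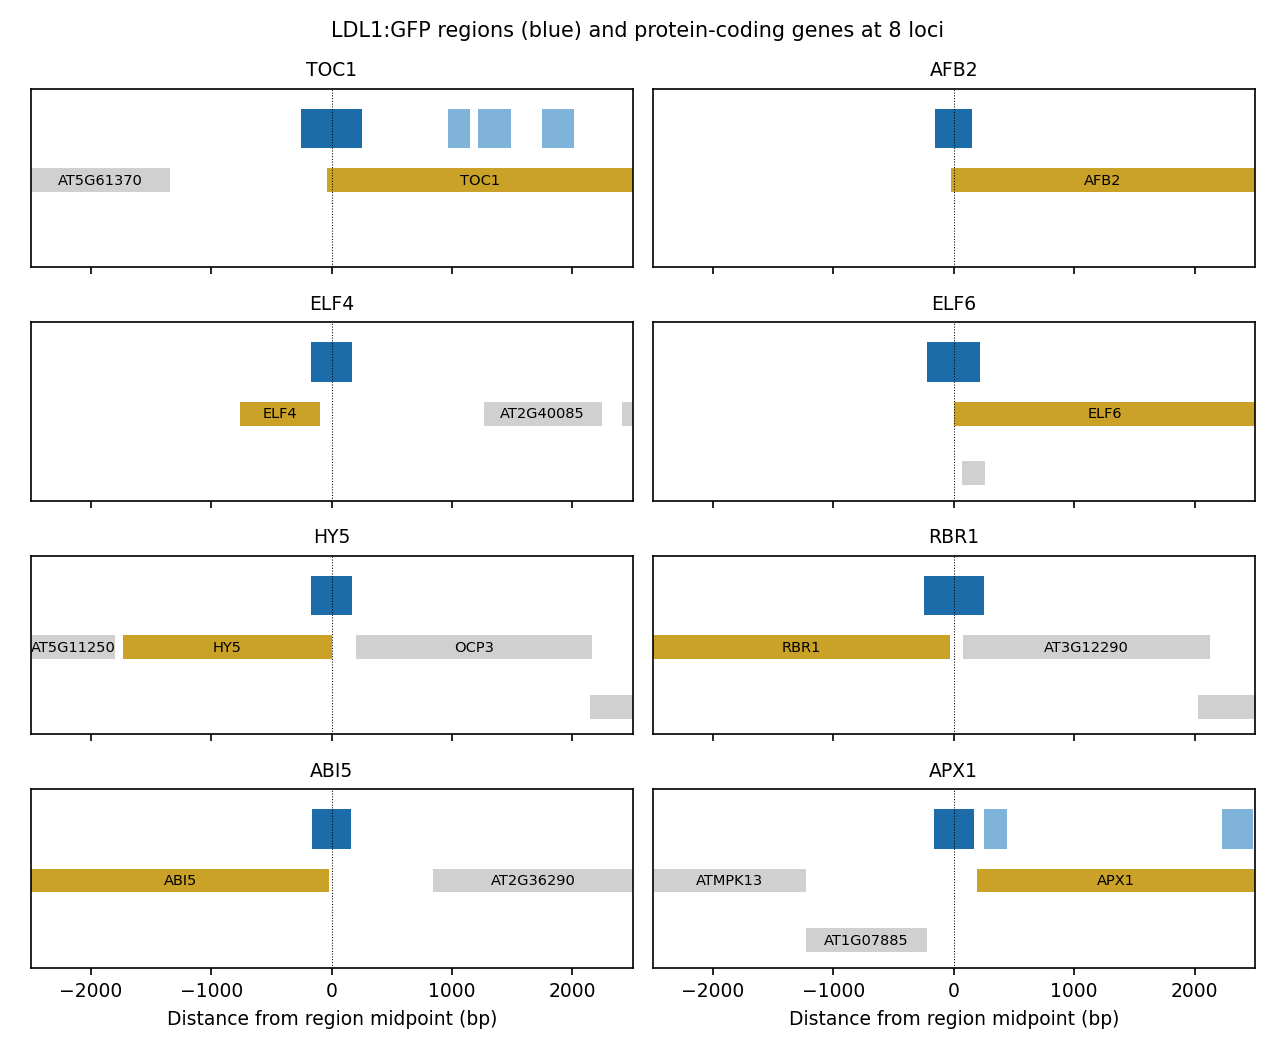
LDL1:GFP regions (blue; the region at distance 0 in dark blue) and protein-coding genes (gold, the named gene; grey, its neighbours) around 8 genes, drawn to scale by distance from the region midpoint in bp (x axis); the y axis only separates the tracks and genes under 60 bp in the window are not drawn. At RBR1 the region spans the gap to the next gene and overlaps both genes, at HY5 it is centred on the gene end with a second gene within 250 bp, at TOC1 and APX1 further regions follow, and at ELF4, ABI5 and AFB2 a single region covers the gene end.

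Among 21 gene lists of pathways and families, 28 of 834 inner-arm members had a region at an end, or 3.36%, close to the 3.13% over all inner-arm genes. No list receives a test, since the lists were written with earlier results known. The lists whose share was farthest from that of all genes were the circadian clock, with 3 of 19 (15.8%, exact 95% interval 3.38 to 39.6%), and abscisic acid and dormancy, with 3 of 29 (10.3%, 2.19 to 27.4%). These are counts of 3 genes each, and 3 of the 28 entries of the clock list were not matched to a gene and are not among the 19.

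The clock genes were TOC1, BOA and ELF4. TOC1, an evening-expressed repressor of the morning genes CCA1 and LHY, held a region of 508 bp with its midpoint 41.5 bp inside the end of lower coordinate (chromosome 5, 24674751 to 24675258). BOA, which is closely related to LUX of the evening complex, held one of 356 bp at 71.5 bp outside its end of lower coordinate (chromosome 5, 24003639 to 24003994). ELF4, itself a component of the evening complex, held one of 344 bp at 99.5 bp outside its end of higher coordinate (chromosome 2, 16734881 to 16735224). In each of the 3 the region covered the gene end, and no other protein-coding gene ended within 250 bp of its midpoint.

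In the list of flowering time genes, 1 of 31 had a region at an end. This was FLC, the repressor of flowering, whose region of 265 bp covered the end of higher coordinate, with its midpoint 123 bp inside the gene (chromosome 5, 3179193 to 3179457). Of 24 light signalling genes, 2 did. HY5, a bZIP factor that promotes light responses, held a region of 344 bp with its midpoint 1.5 bp from the end (chromosome 5, 3594900 to 3595243), which also lay 202.5 bp from OCP3, a homeodomain gene. PHYB, the red light photoreceptor, had one of 245 bp at 182 bp outside the gene that did not reach the end.

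Hormone lists had between 1 and 3 genes each. In the abscisic acid list these were ABI5 and ABF3, bZIP factors that act downstream of the hormone, and PP2CA, a phosphatase that restrains its signalling. Their regions spanned 321, 212 and 203 bp, with midpoints 19, 73.5 and 56 bp outside the gene, and each covered the end. The auxin receptor gene AFB2 held one of 311 bp across its end (chromosome 3, 9867522 to 9867832), and the influx carrier gene LAX3 one of 250 bp that lay 128.5 bp outside, so 2 of 29 auxin genes were reached. Among 27 jasmonate and ethylene genes, JAZ3, a repressor of jasmonate responses, held one of 284 bp across its end. Of the 19 Aux/IAA repressors, IAA16 held one of 272 bp inside the gene. The cold, drought and heat list had 0 of 24, which allows a share of up to 12.5%.

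Of 30 genes of histone modification, 2 had a region at an end. ELF6, a demethylase of histone H3 lysine 27, held a region of 439 bp centred 5 bp outside the gene (chromosome 5, 1168929 to 1169367), within 250 bp of AT5G04238. MSI2, a WD40 histone-binding protein, held one of 263 bp at 50 bp outside, shared with AT2G16790.

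Transcription factor families had between 0 and 4 genes each. MYB genes had 4 of 97, namely MYB1 (533 bp), MYB77 (323 bp), MYB94 (320 bp) and MYB23 (297 bp), each with the gene end inside the region. MYB94 is known for activating wax synthesis and MYB23 for trichome development. NAC genes had 3 of 68. NAC052 and NAC053 shared 1 region of 246 bp, which lay within NAC053 and covered the end of neither gene, and NAC102 held one of 489 bp. ERF4, a repressor in ethylene and jasmonate responses, was the 1 of 35 ERF and DREB genes, with a region of 286 bp. WRKY factors had 0 of 52, which allows up to 5.77%, and bZIP factors named as such 0 of 34. Also at 0 were 18 bHLH genes, 10 SAUR genes, 13 heat shock factors and 40 receptor-like kinases whose symbols fit the patterns of the CRK and LRR groups. The last count does not cover all receptor-like kinases. The patterns missed the gene with the symbol LRR XI-23, which had a region of 339 bp with its midpoint 237 bp inside the gene. FER and THE1, which sense the state of the cell wall, had regions of 308 and 175 bp at an end. All of these genes outside the list were named after their values were seen.

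Among metabolic and housekeeping lists, cytochrome P450 genes had the lowest share above 0, with 2 of 184 (1.09%, 0.132 to 3.87%). They were CYP79C2, with a region of 252 bp, and CYP94B3, an enzyme of jasmonate breakdown, whose region of 207 bp contained a tRNA gene. Ribosomal protein genes had 2 of 43, RPS28 (280 bp) and RPL18 (263 bp), both shared with a neighbour. Of 27 genes of light harvesting and the photosystems, PSB28, a factor of photosystem II, held a region of 349 bp centred 3 bp inside its end.

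**Figure D5:**
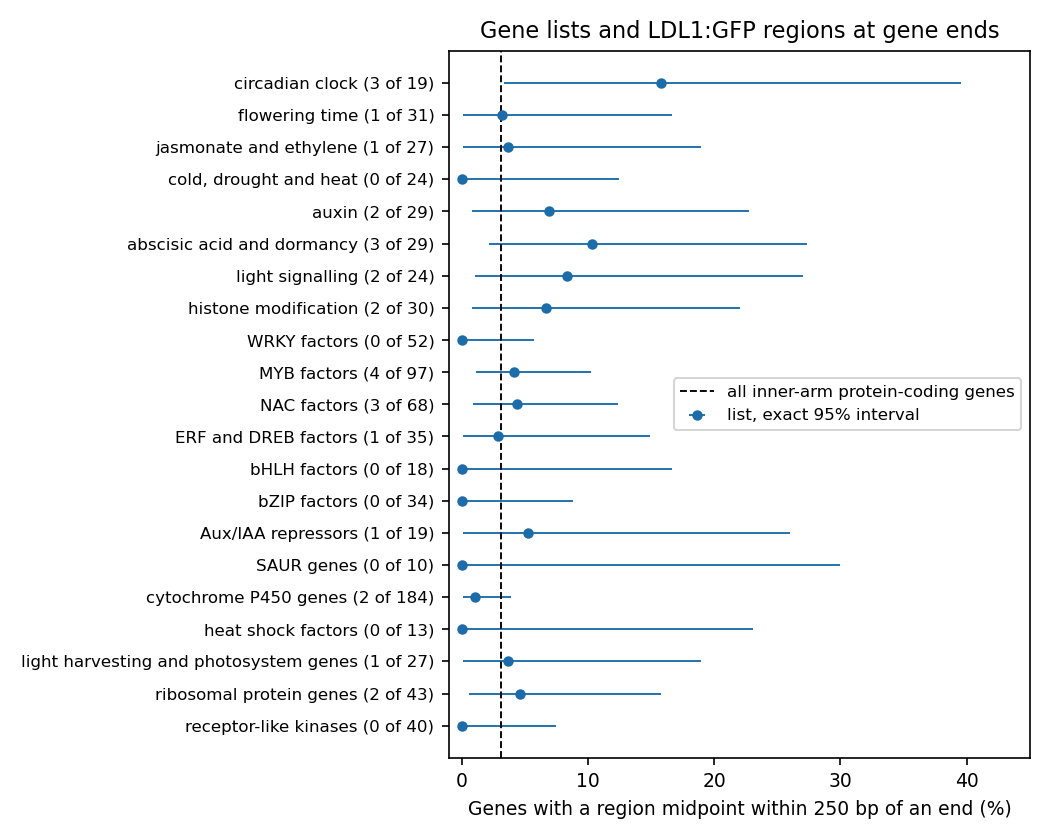
Share of inner-arm genes of each list with an LDL1:GFP region midpoint within 250 bp of an end (x axis, percent; points with exact Clopper-Pearson 95% intervals from counting, or for a count of 0 the limit of 3 counts; counts beside the names), with the share over all inner-arm protein-coding genes as a dashed line at 3.13%. The points range from 0% to 15.8% for the circadian clock, and most intervals are wide because the lists are short.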

How the data were processed

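ChIP-seq libraries of LDL1:GFP seedlings and their input were represented by 2 deposited sets of coordinates, without score, count or depth. Bowtie, SICER and TAIR10 appear, per the submitters' processing notes, as tools and build. Their settings and how replicates were combined are unknown here. Coordinates are 1-based. Gene positions, names and biotypes came from a RefSeq table for TAIR10.1, which has the nuclear chromosomes of TAIR10. Strand and sequence were not used here, so the planned split into starts and stops and the motif search were not made. The segments began at 1000000 and 17000000 on chromosome 1, 7000000 on chromosome 2, 1000000 and 16000000 on chromosome 3, 6000000 on chromosome 4, and 1000000 and 14000000 on chromosome 5. Inner-arm genes had both ends in 1 segment. For densities, each base or midpoint was assigned to its nearest gene end. Pathway lists were matched by symbol or unique synonym (8 of 256 entries were not matched), and families by the pattern of their symbol, so genes without such a symbol are left out. The regions, lists and rules were chosen with earlier results of these data known. Named genes were those at the 12 widest regions and the 6 genes with the most bases in repeated regions. Up to 3 members per list by width were named as well, but all 4 for the MYB list, as were regions closest to the limit. The 6 widest regions at 2 genes and the 6 closest to any end replaced the planned classes that need strand. The assignment was tested on simulated regions planted within or beyond the limit, and 200 of 200 were assigned or left out as planted. Python 3.11.15 was used with pandas 2.3.3, numpy 2.4.6, matplotlib 3.10.9 and scipy 1.17.1.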

Additional observations from a re-analysis of the deposited data

How the results depend on the processing

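The excess at gene ends kept its direction under all 5 alternatives for which it was computed, with ratios of region share to base share of 1.81 at 100 bp, 1.5 at 500 bp, 1.83 for regions at least as wide as the series median of 300 bp, 1.65 without regions on tRNA, snRNA or rRNA genes and 1.69 for regions covered whole by input, against 1.71. Shares follow the limit by construction. Regions at gene ends were 17.6% at 100 bp, 60.9% at 500 bp, 41.3% of the wide regions and 24.6% when the end base had to lie inside the region. The genes reached were 1.32%, 5.2%, 1.22% and 1.95% in the same order, and 2.66% with whole input cover. Median width was 358 bp for the wide regions and 296 bp where the end lay inside. List genes with a region numbered 17 at 100 bp, 52 at 500 bp and 12 with wide regions, against 28. Without regions on tRNA, snRNA or rRNA genes the density near 2 genes was 41.7 per Mb and near 1 gene 25.2 per Mb, and the clock list still held 3. Ends facing a gap of up to 250 bp then held a region in 1.99% of cases and those facing 250 to 500 bp in 1.97%. The ratio, the densities near 1 and 2 genes, the classes of gap and some list settings were chosen after seeing the data. Alternatives on starts, stops and motifs were not run. No paired analysis was possible because the ChIP regions are not separated by replicate, which also means that no replicate could be left out.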

Other observations

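Some families among the 707 genes were counted only after their values were seen, so their counts describe a choice and support nothing. The share over all inner-arm genes was 3.13%. Autophagy genes named ATG or APG had 4 of 22 inner-arm members with a region at an end (exact 95% interval 5.19 to 40.3%): APG5, with a region of 406 bp centred 4.5 bp outside the gene (chromosome 5, 5689749 to 5690154), ATG10 (314 bp), ATG8G (225 bp) and APG8H (363 bp, on a tRNA gene). These genes act in the formation of the autophagosome. Subunits of the CCAAT-binding factor NF-Y had 4 of 33 (3.4 to 28.2%), namely NF-YA4, NF-YA6, NF-YA7 and NF-YC2, with regions of 414, 259, 324 and 407 bp. CHR11, the closest relative of CHR17 among the ISWI remodellers, held a region of 305 bp, so that 2 of 11 genes named CHR were reached (2.28 to 51.8%). The others counted were MCM genes, with 2 of 5 (5.27 to 85.3%), KUP potassium transporters, with 2 of 6 (4.33 to 77.7%), and EXO70 genes, with 2 of 21 (1.17 to 30.4%).

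Values are also given for 3 single genes, which were picked after their values were seen and stand for no group. GAPC1, a cytosolic glyceraldehyde-3-phosphate dehydrogenase, held regions of 404 and 197 bp with their midpoints outside its opposite ends, the first of which covered the end. ACT7, an actin of vegetative tissue, held one of 252 bp, and a region at NRPB1, the largest subunit of RNA polymerase II, had its midpoint 56 bp outside the gene.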
